A study of Mus musculus with 95 samples.

Results

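Long intergenic noncoding RNAs are transcripts of genes that lie between protein-coding genes and carry no long reading frame. The 257 described here are the rows of the deposited gene table with the biotype lincRNA and a mean of 2 or more CPM over the 48 wild-type libraries. CPM is a count scaled to the same total in each library. The 257 come from 5559 lincRNA rows among 54532 genes in all. Genes on chromosomes X and Y, genes on chromosome 6 between 45.7 and 65.7 Mb, and the imprinted genes Meg3, Rian and Mirg were left out by the rule, which removed 12 of the 269 lincRNA rows at or above 2 CPM. The members were chosen by their wild-type level, so that level is a description and not a result. Just inside it stood Gm13830, Gm28307 and Gm47113 with 2.00, 2.00 and 2.01 CPM, and just outside it Gm44899, Gm26848 and 4833418N02Rik with 1.97, 1.98 and 1.99 CPM.

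RNAs of this class have no common function. Some, such as Malat1 and Neat1, stay in the nucleus and bind splicing factors or build nuclear bodies. Others are processed into microRNAs or small nucleolar RNAs, and many are transcribed beside a protein-coding gene and share its tissue pattern. In brain they are known for narrow expression in particular regions and cell types.

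Total RNA of untreated C57BL/6 mice was sequenced. Tissue was either dorsal hippocampus or the bed nucleus of stria terminalis, a limbic nucleus of the ventral forebrain. The mice came from 2 lines that delete the gene of FKBP51, a co-chaperone of the glucocorticoid receptor: FKBP51-Nex-Cre (Nex line), in which Cre follows Neurod6 in glutamatergic neurons of the forebrain, and the Dlx line (FKBP51-Dlx-Cre), in which Dlx5 and Dlx6 regulatory sequence drives Cre in forebrain GABAergic neurons. Cells without the driver keep the gene in the knockouts. Wild-type and knockout males and females of each line and region gave 16 groups of 6 libraries, 1 of them (knockout males, Nex hippocampus) with 5. Ages are not given in the labels.

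Libraries held 19589425 to 31236974 counts. A member had a mean of at least 45.5 counts per wild-type library, which leaves the low members with the wider errors. Fkbp5 was lower in knockouts of the Nex hippocampus (log2 difference of -0.99 in males and -1.07 in females) and of the Dlx bed nucleus (-2.41 and -1.66), and did not pass the test in the Nex bed nucleus or the Dlx hippocampus. The hippocampal neuron markers Wfs1, Fibcd1, Neurod6, Neurod2, Prox1, Zbtb20 and Spink8 summed to 781 to 1791 CPM in hippocampus and 302 to 824 CPM in bed nucleus libraries. Wfs1 went against the list, with means of 190.3 CPM in the hippocampus and 329.8 CPM in the bed nucleus, whereas Neurod2 and Neurod6 had 245.1 and 158.6 CPM against 1.71 and 1.32 CPM. The 8 GABAergic and bed nucleus markers summed to 357 to 880.2 and 1776 to 3390.2 CPM. Oligodendrocyte markers were also higher in the bed nucleus, with a median of 12121 against 4352 CPM, as were microglial markers, with 378 against 255 CPM. The 4 astrocyte markers summed to more in the hippocampus, with a median of 4035 against 2981 CPM. Among them Aldoc went the other way, with means of 623.1 CPM in the hippocampus and 705.5 CPM in the bed nucleus. The 5 striatal markers, of tissue that borders the bed nucleus, summed to 43.8 to 2932 CPM in bed nucleus and 45.1 to 120.5 CPM in hippocampus libraries. Libraries of both regions also varied in markers of other tissue. The 5 thalamus markers summed to 65.4 to 842.5 CPM in hippocampus and 82.1 to 1397.2 CPM in bed nucleus libraries. For the 6 choroid plexus markers the sums were 11.4 to 1226.2 CPM in hippocampus and 6.03 to 543.4 CPM in bed nucleus libraries. Replicate 8 of the knockout females, Dlx hippocampus, stood apart: it had counts for 17863 genes, against 23552 or more in every other library, and 174 of the 257 RNAs lay outside the range of the other 23 Dlx hippocampus libraries.

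The RNAs together took a small share of the counts, and Miat carried most of its difference between the regions. Group means ran from 0.533% to 0.619% in the 8 hippocampus groups and from 0.490% to 0.525% in the 8 bed nucleus groups, so the group means of the regions did not overlap. Without Miat, an alternative chosen after seeing the data, they ran from 0.472% to 0.541% and from 0.465% to 0.507% and overlapped; the wild-type means then were 0.505% and 0.496%, against 0.579% and 0.515% with it. The median member had 4.28 CPM, 58 members had 10 CPM or more, 9 had 100 CPM or more and 141 were under 5 CPM. The 5 most abundant held 51.7% of the counts of all members. Per kilobase of exon the order was led by 2900097C17Rik with 240.6 CPM per kilobase, 6330403K07Rik with 125.9, Malat1 with 69.0, Miat with 50.8 and 1700020I14Rik with 46.5. Next stood Mir124a-1hg with 40.7, 3300002P13Rik with 39.1, Gm10076 with 25.8, Gm3764 with 25.8 and Tmem250-ps with 22.8 CPM per kilobase. In RefSeq 141 of the 257 were listed as noncoding RNA, 4 as pseudogenes, among them Gm10076, and 6 as protein-coding genes, among them 6330403K07Rik and Tmem250-ps; 106 had no match.

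Part of this class carries microRNA hairpins, and some of their mature sequences are shown. Among those shown, miR-9 and miR-129 are each encoded in more than 1 of these RNAs, and their hosts had different region patterns. From RefSeq on GRCm38.p6, 14 members contain a hairpin, and Mir124a-1hg and Mir124-2hg are named for miR-124, a microRNA of neurons. miR-9, a regulator of neural progenitors, lies in Gm3764, C130071C03Rik and Mir9-3hg. miR-129 lies in Gm3294 and Mir670hg, miR-135a in Rmst, miR-138, which acts in dendrites, in C78859, miR-191 in 4833445I07Rik and a cluster of miR-344 hairpins in A230057D06Rik. Capitals mark the seed (bases 2 to 8), and the 2 miR-344 sequences share theirs.
mmu-miR-9-5p: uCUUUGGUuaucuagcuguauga
mmu-miR-129-5p: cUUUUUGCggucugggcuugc
mmu-miR-135a-5p: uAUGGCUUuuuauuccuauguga
mmu-miR-138-5p: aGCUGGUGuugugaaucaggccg
mmu-miR-191-5p: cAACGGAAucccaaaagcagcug
mmu-miR-344-3p: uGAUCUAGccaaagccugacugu
mmu-miR-344c-3p: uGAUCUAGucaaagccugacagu

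The 4 promoters shown are those with the largest region difference in each direction among the members with a RefSeq promoter (116 of 257). Each runs from 250 bases before to 50 after the RefSeq start on GRCm38.p6, and capitals mark CG dinucleotides. The first pair belongs to RNAs that were higher in the hippocampus and the second pair to RNAs that were higher in the bed nucleus.
M5C1000I18Rik, chr9:67760181-67760480, minus strand: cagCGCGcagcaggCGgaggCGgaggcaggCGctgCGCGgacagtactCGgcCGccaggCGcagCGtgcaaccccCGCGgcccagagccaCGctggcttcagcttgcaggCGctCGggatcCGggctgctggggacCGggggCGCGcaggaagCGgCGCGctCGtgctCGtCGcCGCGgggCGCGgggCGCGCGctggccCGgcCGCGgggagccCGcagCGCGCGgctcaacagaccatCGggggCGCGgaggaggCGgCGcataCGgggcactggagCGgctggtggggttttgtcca
Mirt1, chr19:53464747-53465046, minus strand: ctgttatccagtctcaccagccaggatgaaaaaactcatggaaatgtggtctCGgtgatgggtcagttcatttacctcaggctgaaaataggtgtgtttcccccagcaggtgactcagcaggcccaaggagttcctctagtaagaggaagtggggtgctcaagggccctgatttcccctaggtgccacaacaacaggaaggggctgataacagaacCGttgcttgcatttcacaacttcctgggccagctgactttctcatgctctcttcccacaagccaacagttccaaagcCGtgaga
4833415N18Rik, chr16:11779452-11779751, plus strand: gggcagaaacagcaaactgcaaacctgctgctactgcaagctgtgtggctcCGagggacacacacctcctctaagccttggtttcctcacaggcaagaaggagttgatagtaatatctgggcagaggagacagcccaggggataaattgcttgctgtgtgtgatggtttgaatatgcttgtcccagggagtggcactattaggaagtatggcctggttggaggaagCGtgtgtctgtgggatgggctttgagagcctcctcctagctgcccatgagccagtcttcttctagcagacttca
Gm39244, chr8:108537801-108538100, minus strand: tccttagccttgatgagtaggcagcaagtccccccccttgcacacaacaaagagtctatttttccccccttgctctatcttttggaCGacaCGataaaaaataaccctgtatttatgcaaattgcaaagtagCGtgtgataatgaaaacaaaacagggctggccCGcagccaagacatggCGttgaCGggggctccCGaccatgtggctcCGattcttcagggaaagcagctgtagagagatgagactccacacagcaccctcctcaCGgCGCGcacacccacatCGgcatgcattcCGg

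M5C1000I18Rik had 47 CG dinucleotides, Mirt1 had 3, 4833415N18Rik had 2 and Gm39244 had 13. A CG occurs in 94.2% of the promoters of all 27025 genes in that table, which have a median of 7. The median was 11.5 in the 30 hippocampus-called members with a promoter, 5 in the 27 called for the bed nucleus, and 20 in the 59 not called in all comparisons. Motifs were searched on both strands. TGACGTCA, the cAMP response element, was found in 1 of 30 hippocampus, 2 of 27 bed nucleus and 1.88% of all promoters. TAATTA, a homeodomain motif, was found in 2 of 30, 1 of 27 and 5.31%, and TGACAG, a MEIS motif, in 4 of 30, 3 of 27 and 19.3%. CAGATG, an E-box that can overlap TGACAG, was found in 2 of 30, 8 of 27 and 17.2%. None of the 4 motifs occurs in the sequences shown.

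Many of these RNAs differed between the regions in both lines, as did many genes in general. In wild types of the Nex line 80 members were higher in the hippocampus and 68 in the bed nucleus, where 55.6% of all genes tested were called in either direction (26.9% and 28.7%). In wild types of the Dlx line the counts were 78 and 58, against 49.1% of all genes (23.6% and 25.5%). The knockouts, libraries that the rule did not use, gave 81 and 73 in the Nex line, against 54.7% of all genes (27.4% and 27.3%), and 84 and 55 in the Dlx line, against 52.3% (26.1% and 26.2%). Called means an adjusted p under 0.05 in the quasi-likelihood test of edgeR, adjusted by Benjamini-Hochberg over all genes tested. All 257 passed the filter on low counts in these fits. By direction, 30.4% to 32.7% of the members were higher in the hippocampus in the 4 comparisons, above the shares of all genes in each. In the bed nucleus 21.4% and 22.6% were higher in knockouts and wild types of the Dlx line, and 28.4% and 26.5% in those of the Nex line. The members' median log2 differences lay between 0.01 and 0.06, against -0.01 to 0.03 over all genes.

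In all 4 region comparisons, 59 members were higher in the hippocampus and 47 in the bed nucleus, which makes 41.2%, against 36.4% of all genes (17.9% and 18.5%). No member was called in opposite directions in different comparisons, and 68 were called in none. A member near the threshold of 2 CPM that is low in 1 region must be high in the other to be included. Of the 206 members at 2 CPM or more in both regions, 75 (36.4%) were called in all 4, and of the 51 under 2 CPM in 1 region, 31 were. The mean difference exceeded 2-fold for 51 of the 106 (25 for the hippocampus and 26 for the bed nucleus) and 4-fold for 21 (14 and 7). These fold counts were not made for all genes, so they are not read as a trait of the members. They were also not split by the level of 2 CPM in both regions. Across the 257 members the log2 differences of the Nex and Dlx wild types had a Pearson r of 0.968, and those of the knockouts 0.932. The rule used the wild-type levels, and the 51 members under 2 CPM in 1 region are included. Both r are descriptions, and none is given for the 206 members or for all genes. Members are not replicates and share their libraries, so no p is given. In bulk tissue, fewer cells of a type and less RNA per cell cannot be told apart. The part of the neuron, oligodendrocyte, astrocyte, microglial, thalamus and choroid plexus markers given above in these differences was not tested.

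**Figure D1:**
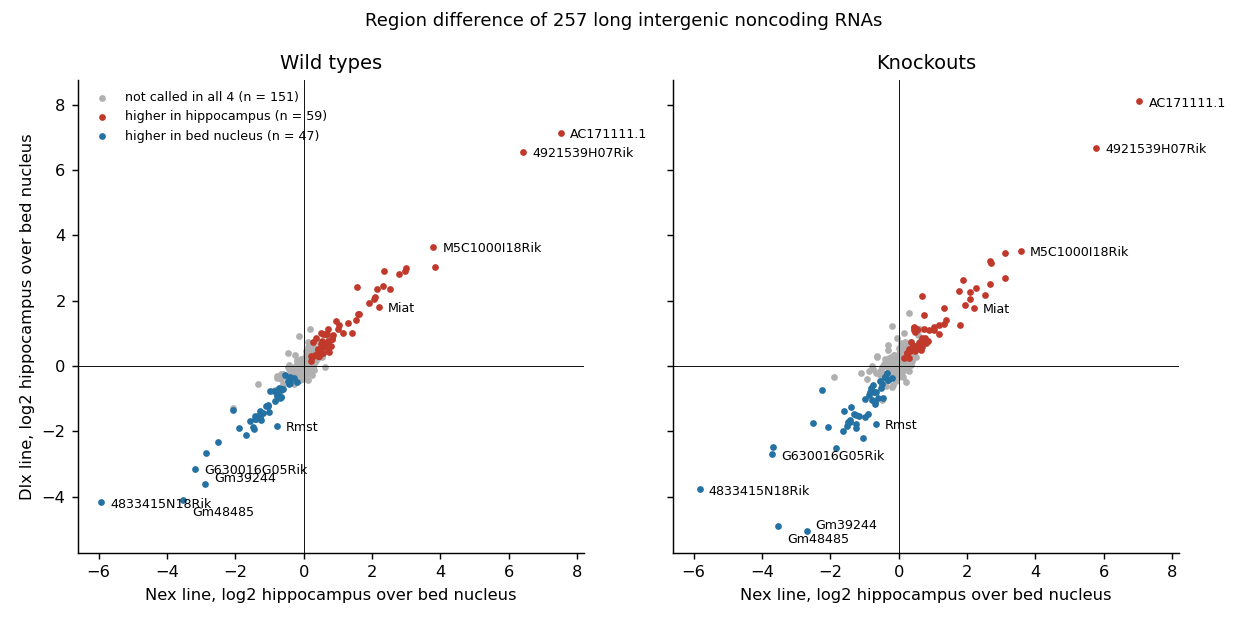
Log2 difference between hippocampus and bed nucleus of the 257 RNAs in the Nex line (x axis) and the Dlx line (y axis), for wild types (left) and knockouts (right); each point is 1 RNA, coloured by its call in all 4 comparisons. The 59 hippocampus and 47 bed nucleus RNAs lie along the diagonal in both panels, with AC171111.1 and 4921539H07Rik farthest up and 4833415N18Rik farthest down in the wild types.

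AC171111.1 (ENSMUSG00000117254, chromosome 17, 14249851 to 14277755, plus strand, GRCm38 coordinates), an RNA of 3 exons, had the largest mean region difference of the 257. In the wild-type hippocampus its lowest, median and highest library had 15.5, 25.6 and 31.5 CPM in the Nex line and 5.79, 22.0 and 31.9 CPM in the Dlx line. In the wild-type bed nucleus the values were 0, 0.136 and 0.274 CPM in the Nex line and 0, 0.107 and 0.566 CPM in the Dlx line. No bed nucleus library reached a hippocampus library of the same line in either genotype. The log2 differences were 7.51 (SE 0.28) in Nex and 7.14 (SE 0.37) in Dlx wild types, and 7.04 (SE 0.26) and 8.10 (SE 0.41) in the knockouts. With levels at or near 0 in the bed nucleus the fitted fold is uncertain: without 1 of the Nex knockout females there, the Nex knockout value was 7.71.

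The next RNA, 4921539H07Rik, had 8.36 CPM in the wild-type hippocampus and 0.0881 CPM in the bed nucleus. Its Nex wild-type hippocampus libraries were spread from 2.15 to 18.2 CPM, and the highest in the bed nucleus of that group had 0.269 CPM. The regions did not overlap in either line; the Dlx wild-type log2 difference of 6.55 (SE 0.39) was 7.29 without 1 male bed nucleus library. M5C1000I18Rik stood at 8.69, 9.6 and 12.4 CPM (lowest, median, highest) in the Nex wild-type hippocampus against 0.364, 0.672 and 1.54 CPM in the bed nucleus, a log2 difference of 3.79 (SE 0.16) with no overlap. It shares 41.3% of its exon bases with C2cd4b on the opposite strand, and reads of the pair cannot be told apart unless strand was used in counting.

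Gm20754 had 4.04 against 0.519 CPM in wild types, without overlap in either line. Gm2762 had 6.97 against 0.864 CPM, and overlapped only in the Dlx knockouts, where the lowest hippocampus library had 0.825 CPM and the highest bed nucleus library 2.53 CPM. Mirt1, first described in injured mouse heart, varied more between libraries. In the Dlx wild-type hippocampus it ran from 0.481 to 8.87 CPM and overlapped the bed nucleus, which reached 0.632 CPM. AC118542.1 had 4.15 against 0.667 CPM, a mean log2 difference of 2.61 over the 4 comparisons.

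3300002P13Rik combined a high level with a large difference. Its Nex wild-type libraries had 46.5, 64.8 and 91.6 CPM in the hippocampus and 4.69, 9.96 and 12.2 CPM in the bed nucleus, and its Dlx wild-type libraries 54.8, 77.9 and 126 CPM against 8.06, 11.2 and 16.9 CPM. The regions did not overlap, and the log2 differences were 2.79 (SE 0.12) and 2.83 (SE 0.24). In the Dlx knockouts the library of female replicate 8 had 442 CPM, and the difference of 3.14 there was 2.71 without it.

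Among the abundant nuclear RNAs Miat, which binds splicing factors in neurons, had the largest region difference. Its wild-type libraries had 671, 726 and 1018 CPM in the Nex hippocampus against 84.7, 168 and 297 CPM in the Nex bed nucleus, and 546, 703 and 894 against 127, 202 and 305 CPM in the Dlx line. The lowest hippocampus library of any group (469 CPM) stood above the highest bed nucleus library (305 CPM). The log2 difference was 2.19 (SE 0.15) in Nex and 1.82 (SE 0.11) in Dlx wild types. Miat shares 24.3% of its exon bases with another gene of the annotation, Gm26953.

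Malat1, which accumulates in nuclear speckles, was higher in the hippocampus too, with wild-type means of 598 and 366 CPM. Its libraries overlapped, from 273 to 1232 CPM in the Dlx wild-type hippocampus and from 137 to 390.1 CPM in the bed nucleus. The log2 differences were 0.50 (SE 0.16) and 0.99 (SE 0.17) in Nex and Dlx wild types. Neat1, the scaffold of paraspeckles and a neighbour of Malat1 on chromosome 19, went the other way, with 228 CPM in the wild-type hippocampus and 394 CPM in the bed nucleus. Its log2 differences were -0.65 (SE 0.13) and -0.96 (SE 0.13), also with overlapping libraries.

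Pvt1, which lies beside Myc, was higher in the hippocampus (11.8 against 7.43 CPM). Rmst, known from neurogenesis in human cells, was higher in the bed nucleus (3.81 against 1.60 CPM), with log2 differences of -0.78 (SE 0.23) in Nex and -1.83 (SE 0.18) in Dlx wild types. Pantr1, beside Pou3f3, was called in 3 of the 4 comparisons. Of 13 nuclear and chromatin RNAs listed, 6 were members. In all 4 comparisons 3 of them were called for the hippocampus and 2 for the bed nucleus, with a median log2 difference of 0.78 over the 6. Of all 257 members 41.2% were called in all 4, and of all genes 36.4%. A list of 6 is too short to describe this kind of RNA. Of 19 hosts of small nucleolar RNAs listed, Snhg6, Snhg12 and Snhg20 were members. None of these was called in all 4, and their mean log2 differences were 0.01, 0.29 and 0.28.

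The most abundant member, 2900097C17Rik, varied least between libraries of a group. Its coefficient of variation had a median of 5.66% over the 16 groups, where the 58 members at 10 CPM or more had a median of 13.6% and the 141 under 5 CPM 22.7%. Wild-type libraries ran from 1026 to 1397 CPM in the Nex hippocampus and from 948 to 1270.0 CPM in the Nex bed nucleus, with wide overlap. The log2 difference was -0.01 (SE 0.05) in Nex and 0.04 (SE 0.06) in Dlx wild types, and none of the 4 comparisons called it. Among the 58, Gm10076 varied most, with 56.6% and libraries from 0.944 to 53.4 CPM.

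**Figure D2:**
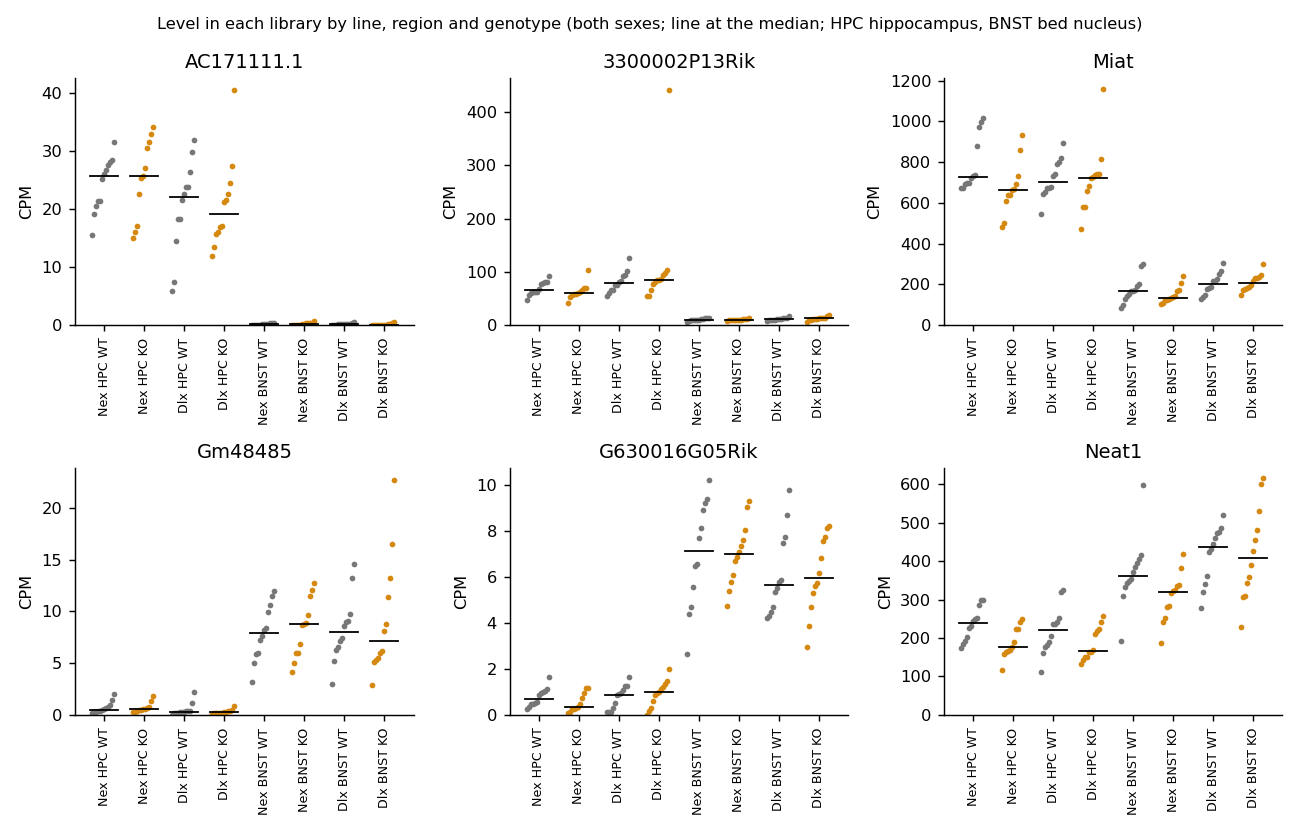
Level in CPM of 6 RNAs in each library (points), by line, region and genotype with both sexes together and a line at the median; grey is wild type and orange knockout. AC171111.1, 3300002P13Rik, Miat, Gm48485 and G630016G05Rik separate the regions without overlap within each line, Neat1 overlaps, and the isolated 3300002P13Rik point of 442 CPM is knockout female Dlx hippocampus replicate 8.

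In the bed nucleus the largest difference belonged to 4833415N18Rik (chromosome 16, 11778429 to 11781500). Its Nex wild-type libraries had 1.08, 4.65 and 8.85 CPM in the bed nucleus and 0, 0.0606 and 0.253 CPM in the hippocampus, a log2 difference of -5.92 (SE 0.43) with no overlap. In the Nex knockouts it was -5.83, and -6.49 without 1 female hippocampus library. In the Dlx line it was -4.17 (SE 0.50) in wild types and -3.78 in knockouts, where the regions overlapped, and -4.97 without hippocampus replicate 8. Gm48485 (chromosome 10, 86657405 to 86671018) had 3.13, 7.90 and 11.9 CPM in the Nex wild-type bed nucleus against 0.19, 0.515 and 2.00 CPM in the hippocampus. It did not overlap in either line, and its log2 differences were -3.53 (SE 0.26) and -4.10 (SE 0.37), the second being -4.69 without hippocampus replicate 10.

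Gm39244, G630016G05Rik and 2700033N17Rik had 5.95, 6.58 and 9.34 CPM in the wild-type bed nucleus and 0.649, 0.767 and 1.39 CPM in the hippocampus. G630016G05Rik separated the regions without overlap in both lines, with log2 differences of -3.19 (SE 0.25) in Nex and -3.15 (SE 0.31) in Dlx wild types. Gm28578, Gm42500 and Gm17276 had mean log2 differences of -2.27, -2.04 and -1.93 over the 4 comparisons. 6330403K07Rik was far more abundant, with 239.7 CPM in the bed nucleus and 136 CPM in the hippocampus, and log2 differences of -0.88 (SE 0.09) and -0.77 (SE 0.15). The striatal and GABAergic marker sums given above also differed between the regions, and their part in these differences was not tested.

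In both lines 15 of the 257 (5.84%) had no overlap between the regions over all libraries, against 4.15% of all genes. Of the 51 members under 2 CPM in a region, 9 (17.6%) were among these 15. Of the 206 members at 2 CPM or more in both regions, 6 were (2.91%, below the share of all genes). They are Miat, 3300002P13Rik, C230057M02Rik and 9330102E08Rik, higher in the hippocampus, and Gm36855 and 1700047M11Rik, higher in the bed nucleus; the names outside the naming rule were chosen after their values were seen.

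The RNAs named for the same microRNA, or holding it, had different region patterns. Mir124a-1hg and Mir124-2hg are tied to miR-124 here by name alone. Mir124a-1hg was higher in the hippocampus: its Nex wild-type libraries had 219, 245 and 269.6 CPM there and 116, 137 and 173 CPM in the bed nucleus, a log2 difference of 0.84 (SE 0.06). Mir124-2hg was higher in the bed nucleus, with 39.7, 52.6 and 70.9 CPM against 18.96, 27.9 and 46.9 CPM, a log2 difference of -0.83 (SE 0.12), and its libraries overlapped. In Dlx wild types the values were 0.82 (SE 0.07) and -1.06 (SE 0.14).

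Of the 3 miR-9 hosts, C130071C03Rik, whose nearest coding gene is Mef2c, had 56.1 CPM in the wild-type hippocampus and 26.5 CPM in the bed nucleus. Its log2 differences were 1.14 (SE 0.08) and 1.02 (SE 0.10). Gm3764 was also higher in the hippocampus, by 0.43 (SE 0.07) and 0.30 (SE 0.09) on the log2 scale. Mir9-3hg had 27.9 and 25.8 CPM and was called in none of the 4 comparisons.

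Of the miR-129 hosts, Mir670hg was higher in the bed nucleus, with log2 differences of -0.61 (SE 0.12) and -0.71 (SE 0.16), and Gm3294 was called in none of the 4, with a mean of -0.06. C78859, with miR-138, was called in none either (mean 0.01). 4833445I07Rik, with miR-191, was called for the hippocampus in all 4, with a mean of 0.63, and A230057D06Rik, with the miR-344 cluster, for the bed nucleus, with -0.60. The counts are of the host transcripts; the mature microRNAs shown above were not measured.

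**Figure D3:**
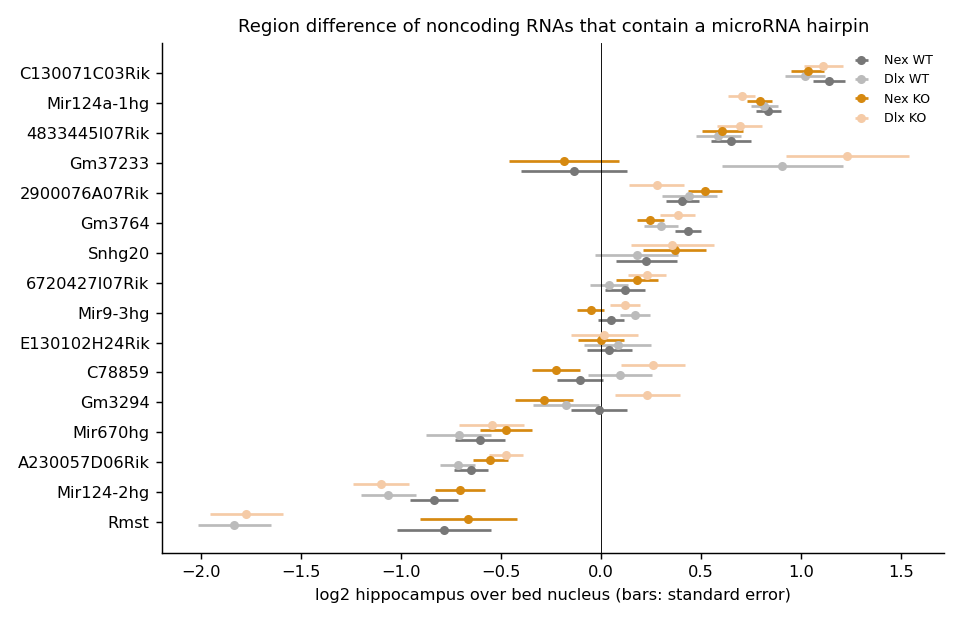
Log2 difference between hippocampus and bed nucleus (x axis, bars are the standard error) of the 14 RNAs that contain a RefSeq microRNA hairpin and of the 2 named for miR-124, in wild types and knockouts of each line. Mir124a-1hg and C130071C03Rik lie right of 0 and Mir124-2hg, A230057D06Rik, Mir670hg and Rmst left of 0 in all 4 comparisons.

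Of the 16 RNAs with the largest region differences, 10 had a nearest protein-coding gene that was called in the same direction in all 4 comparisons. The nearest coding genes of the other 6 (4921539H07Rik, Mirt1, 4833415N18Rik, Gm48485, Gm28578 and Gm42500) were not called in all 4, had mean log2 differences of -0.20 to 0.15 and lay 15827 bases away or farther. Among all called members with a tested neighbour, 46 of 98 had a neighbour called in the same direction. For called protein-coding genes at 2 CPM or more it was 1254 of 4541. All of the 16 but 3300002P13Rik were under 2 CPM in 1 region of the wild types, and so passed the rule through the other region. The examples that follow were chosen after their values were seen, and Gm44257 and Gm12063 are not among the 16. AC171111.1 lies 1751 bases from Smoc2, which codes for a secreted calcium-binding matrix protein, on the same strand, and Smoc2 had a mean log2 difference of 6.48. G630016G05Rik and 2700033N17Rik overlap each other on opposite strands and lie 1386 and 379 bases from Meis2. Meis2, a homeobox gene of the ventral forebrain, had -3.08 and is counted above for both RNAs. Gm44257 lies 603 bases from Cacng8, an auxiliary subunit of AMPA receptors (1.72), and 3300002P13Rik 750 bases from Cacng6 (3.59). Gm39244 overlaps the body of Zfhx3 (-1.78) and shares no exon base with it, and Gm12063 lies 689 bases from Bcl11a (1.31); both neighbours code for transcription factors.

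Over the members and their nearest protein-coding genes the mean log2 differences had a Pearson r of 0.568 (240 pairs with both genes tested). It was 0.818 for the 142 pairs with a gap of up to 5000 bases and 0.25 for the 98 pairs farther apart. The closer pairs include AC171111.1, the RNA with the largest region difference, with Smoc2, and no r without that pair is given. By orientation, at any gap, r ran from 0.224 to 0.885. The lowest was in 30 pairs on opposite strands with their ends facing, the highest in 9 overlapping same-strand pairs. Protein-coding genes at 2 CPM or more and their own nearest protein-coding gene had 0.197 over 10884 pairs, 0.273 within 5000 bases and 0.135 beyond. Where both genes of a pair within 5000 bases were called in all 4 comparisons, 27 of 28 RNAs had the direction of their neighbour, against 69.9% of 1028 such pairs of protein-coding genes. The exception was 2900079G21Rik, higher in the hippocampus with a mean of 1.57, which overlaps Arpp21 (-2.02) on the opposite strand.

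Reads can be shared in such pairs. Of the 257 members, 91 share exon bases with another gene, 5 of them over more than 50% of their exon length, and 55 overlap the body of a coding gene. Among the 81 pairs within 5000 bases whose RNA shares no exon base with another gene, r was 0.845, and 13 of 13 called pairs had the same direction. Same-strand pairs were not left out there. Of the 257 members, 22 lie within 5000 bases downstream of a coding gene on the same strand. In the 51 of the 81 pairs that lie on opposite strands with a gap of at least 1 base, r was 0.643 and 9 of 9 had the same direction. All pairs come from the same libraries, so r is a description with no p. RNAs called for the bed nucleus lay farther from a coding gene, with a median gap of 12637 bases, than those called for the hippocampus, with 2293, or those not called in all 4, with 1526; this order was not tested.

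**Figure D4:**
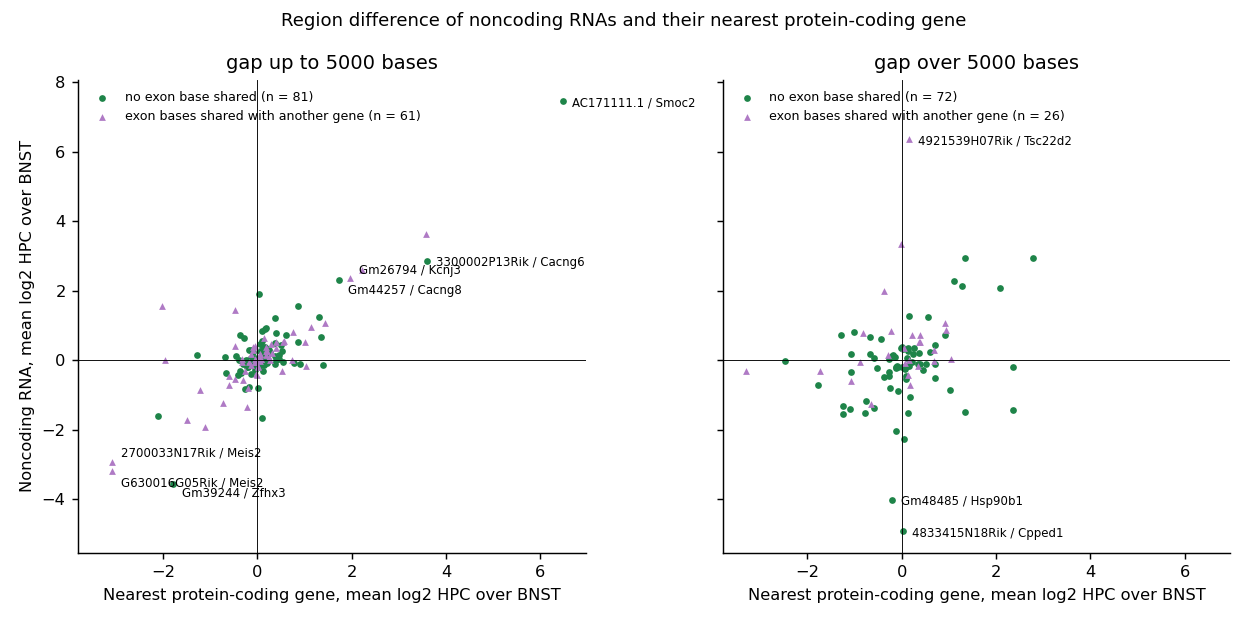
Mean log2 difference between hippocampus and bed nucleus of each RNA (y axis) and of its nearest protein-coding gene (x axis), for gaps of up to 5000 bases (left, 142 pairs) and over 5000 bases (right, 98 pairs); triangles share exon bases with another gene. Points follow the diagonal on the left, with AC171111.1 and Smoc2 at the top, and scatter on the right, where the nearest coding genes of 4921539H07Rik, Gm48485 and 4833415N18Rik had 0.15, -0.20 and 0.03.

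Deletion of Fkbp5 changed no member past the threshold. In the 12 comparisons of knockouts with wild types (each line and region, in males, in females and averaged over both), 0 of the 254 to 256 members tested were called by edgeR's quasi-likelihood test and 0 by DESeq2. Few genes at all were called by edgeR. There were 2, Fkbp5 among them, in each Nex hippocampus comparison (0.0106% of all genes). Only Fkbp5 was called in each Dlx bed nucleus comparison (0.00539%), and 0 genes were called in the others. Members at an unadjusted p under 0.05 were counted with the share of all genes beside them. In the Nex hippocampus there were 16 of 256 (6.25%, against 9.93% of all genes) in males, 6 of 256 (2.34%, against 2.56% of all genes) in females and 21 of 256 (8.2%, against 10.5% of all genes) over both. In the Nex bed nucleus there were 6 of 255 (2.35%, against 2.06% of all genes) in males, 4 of 255 (1.57%, against 1.39% of all genes) in females and 7 of 255 (2.75%, against 2.16% of all genes) over both. In the Dlx hippocampus there were 5 of 254 (1.97%, against 3.2% of all genes) in males, 20 of 254 (7.87%, against 10.6% of all genes) in females and 12 of 254 (4.72%, against 4.68% of all genes) over both, and in the Dlx bed nucleus 7 of 255 (2.75%, against 4.34% of all genes) in males, 12 of 255 (4.71%, against 5.66% of all genes) in females and 5 of 255 (1.96%, against 2.07% of all genes) over both. The members' shares ran from 1.57% to 8.20%, and lay below those of all genes in 8 of these 12 comparisons.

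The genotype differences were small beside the region differences. In the comparisons over both sexes the median standard error of a member on the log2 scale was 0.12 (hippocampus) and 0.12 (bed nucleus) in the Nex line, and 0.18 and 0.13 in the Dlx line. Between 97.2% and 99.6% of the members differed by less than 0.5 in either direction in these 4 comparisons. These are fitted values and not limits, and they do not show that any member stayed the same. Cells without the driver keep the gene, so a change confined to the deleted cells is diluted in bulk tissue. In the Nex bed nucleus and the Dlx hippocampus Fkbp5 itself did not pass the test. AC171111.1 had 23.2 CPM in knockout and 22.8 CPM in wild-type males of the Nex hippocampus, and 26.9 and 25.8 CPM in females. Its log2 difference over both sexes was 0.05 (SE 0.14) in the Nex and 0.06 (SE 0.23) in the Dlx hippocampus.

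**Figure D5:**
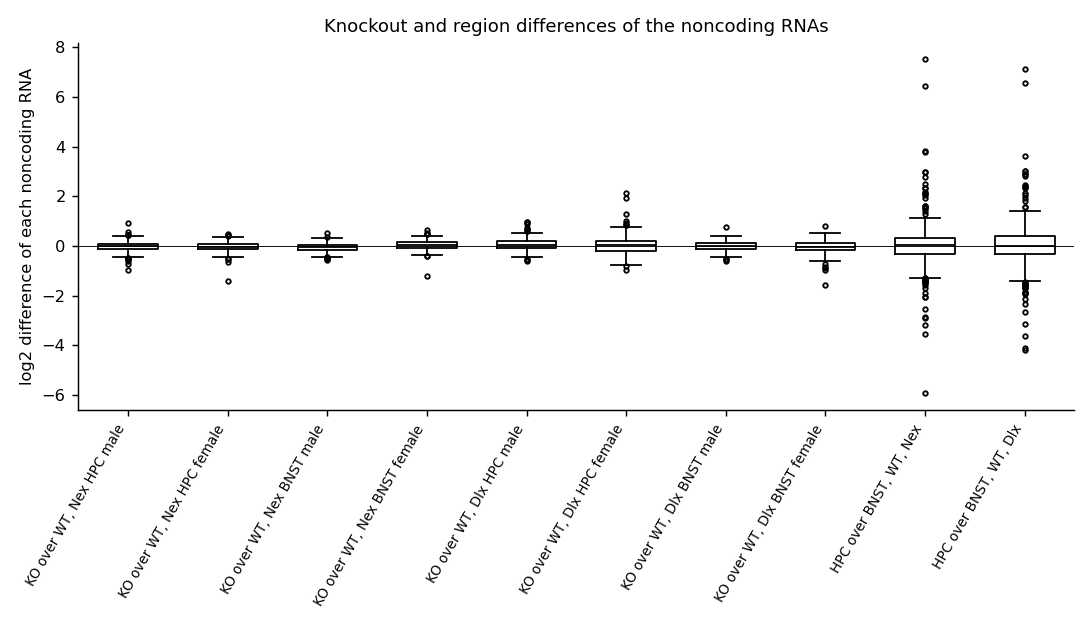
Log2 differences of the RNAs for knockout over wild type in each line, region and sex (first 8 boxes) and for hippocampus over bed nucleus in wild types (last 2); boxes show the quartiles, the line is the median, whiskers reach 1.5 times the box and points lie beyond. The knockout boxes stay close to 0, while the region differences reach 7.51 for AC171111.1 and -5.92 for 4833415N18Rik.

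The smallest adjusted p belonged to Gm20300 in males of the Nex hippocampus. It had 30.5, 37.2 and 45.6 CPM (lowest, median, highest) in 5 knockouts and 28.7, 31.2 and 33.1 CPM in 6 wild types, with overlap. The log2 difference was 0.33 (SE 0.10), with an adjusted p of 0.334 in edgeR's quasi-likelihood test. The exact two-sided permutation test gave 0.0216, where the smallest p of 5 against 6 libraries is 0.00433. Gm20300 was picked by its p in these same libraries, so the exact p is no separate support. It is also not adjusted for the members tested. In females Gm20300 had 33.0 ± 3.96 CPM in knockouts and 31.1 ± 3.18 CPM in wild types (SD, n = 6 each), a log2 difference of 0.08 (SE 0.09). Over both sexes it was 0.20 (SE 0.07).

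In the Nex bed nucleus the smallest p in males belonged to 2010320M18Rik, 102 bases from Pik3r2. It had 2.15 to 3.12 CPM in knockouts and 2.94 to 4.35 CPM in wild types, a log2 difference of -0.43 (SE 0.12) that missed the threshold. Its exact two-sided permutation p was 0.00866, where 6 against 6 libraries can give 0.00216. In females 1700096K18Rik had 3.14 to 4.02 against 2.19 to 3.28 CPM, with an exact permutation p of 0.00649. The groups of both RNAs overlapped, and the exact p-values are not adjusted for the members tested. Both RNAs were picked by their p in the same libraries.

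In the Dlx line the smallest p belonged to Lppos in hippocampus females, with 0.846 to 34.9 CPM in knockouts and 1.18 to 2.65 CPM in wild types; its highest value is replicate 8, and the log2 difference of 2.15 was 0.30 without it. In hippocampus males it was A330102I10Rik (0.40 (SE 0.17) on the log2 scale, and 0.26 without 1 knockout) and over both sexes Gm1976 (0.22 (SE 0.08)). In the Dlx bed nucleus Gm26917 had 7.94 to 12.5 CPM in knockout and 9.48 to 50.4 CPM in wild-type females, a log2 difference of -0.98 that was -0.42 without wild-type replicate 10. Gm20342 in males had a log2 difference of -0.30 (SE 0.12) and Gm7292 over both sexes one of -0.31 (SE 0.11). In Nex hippocampus females it was Gm10076, with -1.39 (SE 0.58). None of these passed the threshold.

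Among the abundant nuclear RNAs Neat1 had 189 and 251 CPM in knockout and wild-type males of the Nex hippocampus and 189.7 and 222 CPM in females. The groups overlapped. The log2 difference over both sexes was -0.32 (SE 0.12) there, -0.28 (SE 0.13) in the Nex bed nucleus, -0.22 (SE 0.13) in the Dlx hippocampus and -0.02 (SE 0.11) in the Dlx bed nucleus. Miat had -0.24 (SE 0.11) and Malat1 -0.01 (SE 0.12) in the Nex hippocampus. None passed the threshold, and the 3 members within 10 Mb of Fkbp5 were not called either.

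The genotype difference was not shown to depend on region or sex for any member. None of the 257 was called by edgeR for region by genotype in either line, where 0.00502% (Nex) and 0.00513% (Dlx) of all genes were. None was called in the 4 comparisons of sex by genotype, where 0 of all genes were. At an unadjusted p under 0.05 there were 6 of 257 (2.33%, against 2.89% of all genes) for region by genotype in the Nex and 8 of 257 (3.11%, against 2.85% of all genes) in the Dlx line. For sex by genotype there were 3 of 256 (1.17%, against 2.72% of all genes) and 3 of 255 (1.18%, against 1.14% of all genes) in the Nex hippocampus and bed nucleus, and 12 of 254 (4.72%, against 7.22% of all genes) and 17 of 255 (6.67%, against 8.88% of all genes) in those of the Dlx line. DESeq2 called 0 members in these 6 comparisons. On the log2 scale the smallest p belonged to 2010320M18Rik (0.50 (SE 0.14)) and A330008L17Rik (0.57 (SE 0.19)) for region by genotype in the Nex and Dlx lines. For sex by genotype it belonged to Gm10076 in the Nex hippocampus (2.31 (SE 0.80)) and the Dlx bed nucleus (2.31 (SE 0.69)), to Gm45768 in the Nex bed nucleus (0.55 (SE 0.24)) and to Epb41l4aos in the Dlx hippocampus (-2.54 (SE 0.84)). The Epb41l4aos value was -0.61 without knockout female replicate 8, which had 60.9 CPM. The Gm10076 value of the Nex hippocampus was 1.01 without the knockout male that had 53.4 CPM.

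Between the sexes 1 member was called in wild types. Gm10605, which overlaps Tpbgl on the opposite strand and shares 32.7% of its exon bases with it, had 8.97, 12.1 and 14.5 CPM in males and 2.10, 3.75 and 7.29 CPM in females of the Dlx hippocampus, with no overlap. The log2 difference was 1.505 (SE 0.31), with an adjusted p of 0.0376 in edgeR's quasi-likelihood test, where 0.23% of all genes were called and 33 of 254 (12.99%, against 12.1% of all genes) members had an unadjusted p under 0.05. The call was lost without any of 10 single libraries of that fit (4 wild-type males, 3 wild-type females and 3 knockout males), with values of 1.37 to 1.51 and adjusted p up to 0.12. In the Nex hippocampus it had 7.97 ± 1.03 CPM in males and 8.76 ± 1.93 CPM in females (SD, n = 6 each).

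In the other 3 sex comparisons 0 members were called by edgeR, where 0.0535% (Nex bed nucleus), 0.0701% (Dlx bed nucleus) and 0.117% (Nex hippocampus) of all genes were, and 18 of 255 (7.06%, against 4.14% of all genes), 22 of 255 (8.63%, against 9.19% of all genes) and 17 of 256 (6.64%, against 6.67% of all genes) members had an unadjusted p under 0.05. DESeq2 called 1 member in the Dlx bed nucleus and 0 in the others. The smallest p belonged to Malat1 in the Nex hippocampus (0.54 (SE 0.16)), Gm3294 in the Nex bed nucleus (0.56 (SE 0.14)) and Gm7292 in the Dlx bed nucleus (-0.68 (SE 0.15)), on the log2 scale of males over females.

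The median member was slightly higher in wild-type males in each of the 4 comparisons, by 0.09 in both hippocampus comparisons, 0.07 in the Nex and 0.08 in the Dlx bed nucleus on the log2 scale, against medians of 0.00 to 0.01 over all genes tested. Positive values were found for 178 of 256 members (hippocampus) and 164 of 255 (bed nucleus) in the Nex line, and for 158 of 254 and 169 of 255 in the Dlx line. These are 62.2% to 69.5%, against 50.5% to 52.1% of all genes. Without replicate 8 of the knockout females, whose library enters the spread, 18 members were called in the Dlx hippocampus, 16 of them higher in males, and 6.06% of all genes. The title numbers of males and females come from separate ranges in both lines, so sex and a difference between such cohorts cannot be told apart. Marker sums differed between the wild-type sexes too. Oligodendrocyte medians were 5389 CPM in females and 3521 CPM in males of the Dlx hippocampus, but 4465 and 4710 CPM in the Nex hippocampus. Striatal medians were 529 and 1097 CPM in the Dlx bed nucleus. The part of such markers in the sex differences was not tested.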

How the data were processed

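Total RNA of 95 mouse brain libraries was analysed from 1 table of the whole series. Its deposited counts are whole numbers of reads per gene, made by the authors with HISAT2 2.0.5 and featureCounts 1.5.0-p3, per the submitters' processing notes, which also name DESeq2. Build, annotation and strandedness are not given in the sources used here; 251 of the 257 members have the coordinates of GENCODE M21 (GRCm38). 95 columns of FPKM and 40 columns of comparisons were not used. Libraries held 19589425 to 31236974 counts, and no row was without a gene.

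Counts were tested with edgeR 4.0.16 (R 4.3.3): filterByExpr, TMM scaling, quasi-likelihood F test, Benjamini-Hochberg adjustment over all genes tested, adjusted p under 0.05. Genotype and sex fits held the 4 groups of a line and region, region fits the 8 groups of a line. Levels are CPM with TMM factors over the 95 libraries, whereas the rule and the counts of members by level used CPM without them. Exact two-sided permutation tests used log2(CPM + 0.5). Alternatives were limma 3.58.1 with library quality weights, DESeq2 1.42.0, scaling by median of ratios, all genes without the filter, the title number as a block, only the 2 groups compared, leaving out each library, and other forms of the rule. The scripts were tested on simulated data. The labels do not say that libraries of a group are separate animals, though the design text counts mice.

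The members, gene lists and naming rule were chosen with earlier results of these data known. Named were AC171111.1, the 10 RNAs with the highest level per kilobase, the 8 with the largest region difference in each direction, those called or with the smallest p in each other comparison, those nearest the threshold, and members of the lists. Of 15 listed neighbours of developmental regulators, 0 were members; of 13 listed microRNA hosts 5 were. The 4 motifs were first searched in 6 promoters picked by hand, with no match in any. Marking CG dinucleotides and showing the 2 promoters with the largest difference in each direction were chosen after that, with the CG medians already seen.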

Additional observations from a re-analysis of the deposited data

Results flagged for a closer look

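Dixon's test at the 95% level was applied to 60 sets of 5 or 6 libraries (1 RNA in 1 group). The sets belong to the RNAs named for a genotype, sex or interaction comparison. In 7 of them it set 1 library apart. The usual rate of about 1 in 20 cannot be set against this. The RNAs were named for a call or the smallest p, and 3 of the 7 come from 1 library. Knockout female Dlx hippocampus replicate 8 was apart in 3: it had 34.86 CPM of Lppos where the other 5 had 0.846 to 3.60, 60.92 CPM of Epb41l4aos where they had 3.185 to 4.004, and 3.464 CPM of A330008L17Rik where they had 7.24 to 9.51. A wild-type male of the Dlx hippocampus had 9.403 CPM of Epb41l4aos, against 4.23 to 5.95 in the others. Gm26917 had 50.4 CPM in wild-type female Dlx bed nucleus replicate 10, against 9.48 to 17.5. Gm10076 had 53.43 CPM in 1 knockout male of the Nex hippocampus, against 4.23 to 10.4. Gm7292 had 2.847 CPM in 1 knockout male of the Dlx bed nucleus, against 1.76 to 2.03.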

How the results depend on the processing

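The region counts in all 4 comparisons ranged from 54 to 60 for the hippocampus and 45 to 52 for the bed nucleus over DESeq2, limma, median-of-ratios factors, no filter and the replicate block, and from 56 to 61 and 46 to 49 when 1 library was left out. No result changed direction. The genotype and interaction counts were 0 under every alternative run. The sex counts of the Dlx line moved: in the hippocampus from 1 to 7 with DESeq2 (where 2.47% of all genes were called) and 38 with limma (12.7%), and between 0 and 18 with 1 library left out; in the bed nucleus from 0 to 1 (0.442%) and 22 (7.37%), and between 0 and 3. The calls over all genes moved with them. The cause was not tested. Same-numbered libraries of the 2 regions deviated together weakly and not in every pair (42 pairs, r from -0.175 to 0.326, median 0.0694, 31 above 0 and 15 over 0.1). In 15 the best match was their own number, where equal odds give 7, a hint from the data and not from the design; the numbers are not taken as pairs. With the number as a block, 55 and 45 members were called in all 4. The rule gave 234 members by the median level, 233 of them shared, and 254 by TMM-scaled CPM. Members near 2 CPM rest on about 45.5 counts a library.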
